A study of Mus musculus with 8 samples.

Results

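The 10 genes described here belong to the acute phase response and were measured in the livers of male db/db mice: *Saa1*, *Saa2*, *Saa3*, *Saa4*, *Orm1*, *Orm2*, *Hp*, *Hpx*, *Lcn2* and *Apcs*. They were chosen by symbol, and all 10 were found among the 21532 genes of the table and reached the mean normalized count of 10 that was needed for testing. Liver RNA-Seq compared 4 mice given AF1 peptide with 4 mice given control peptide, with 1 library per mouse. The db/db mice of both groups carry a leptin receptor mutation that makes them obese and diabetic, so there was no lean reference, and the methods name a C57B/6J background. AF1 peptide is a synthetic peptide derived from estrogen receptor α that carries a FITC-labelled TAT sequence for entry into cells. Treatment began when the mice were 8 weeks old, and both groups received retro-orbital injections of 5 mg/kg body weight 2 times a week over 5 weeks. What the control peptide was made of is not given in the sources used here. Litters and cages are not named, and the p values measure the spread between these 8 mice. Libraries held 35260283 to 45117528 reads in the controls and 23031880 to 43978158 in AF1 peptide mice, of which AF1 peptide 2 was the shallowest, and mitochondrial genes took 20.8 to 37.8% of them.

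In the acute phase response, infection, injury or chronic inflammation makes the liver change the plasma proteins it secretes. Interleukin 6 acts on hepatocytes through STAT3, and interleukin 1 and tumor necrosis factor act through NF-κB, together with C/EBP factors that bind the promoters of the responding genes. The proteins that rise are called positive acute phase proteins, and obesity is known for a mild, lasting form of this response. Serum amyloid A travels on high-density lipoprotein, orosomucoids are small acidic glycoproteins that carry drugs and lipids, haptoglobin and hemopexin take free haemoglobin and haem out of plasma, lipocalin 2 binds bacterial iron carriers, and serum amyloid P is a pentraxin.

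No acute phase gene passed the test between AF1 peptide and control mice when all 8 mice were used. Of the 10 genes, 0 were called higher and 0 lower, where called means an unadjusted p value under 0.05 in limma together with a change of more than 1.3-fold. Among all 15989 genes tested, 1.79% were called higher and 1.9% lower by this rule. An unadjusted p value under 0.05 alone was reached by 0 of the 10 genes and by 6.19% of all genes. The groups did not overlap in 0 of the 10 genes and in 3.9% of all genes. Within groups, mice differed much more in some of these genes than in others, and 1 control mouse, control 2, had the highest level of 6 of the 10 genes. The values of each gene in each mouse are given first, and the effect of that mouse on the comparison follows.

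The promoters of these genes are shown because the genes differ in how their levels moved together from mouse to mouse, and because C/EBP factors are textbook regulators of them. RefSeq sequences (GRCm38.p6) were found for 8 of the 10 genes. The letters TTGCNNAA, a C/EBP-type motif, were searched on both strands of the 250 bases before each start, and matches are in capitals. The stretches printed for *Saa1* and *Saa2* run from 220 to 45 bases before the start, that for *Lcn2* from 220 to 61, and those for *Orm2* and *Apcs* from 150 to 1, each read 5′ to 3′ on the strand of the gene.
Saa1, minus strand, chr7:46743025-46743200: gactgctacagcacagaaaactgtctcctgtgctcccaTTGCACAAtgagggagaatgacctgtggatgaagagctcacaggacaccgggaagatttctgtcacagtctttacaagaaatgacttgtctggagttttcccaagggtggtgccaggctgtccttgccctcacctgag
Saa2, plus strand, chr7:46751613-46751788: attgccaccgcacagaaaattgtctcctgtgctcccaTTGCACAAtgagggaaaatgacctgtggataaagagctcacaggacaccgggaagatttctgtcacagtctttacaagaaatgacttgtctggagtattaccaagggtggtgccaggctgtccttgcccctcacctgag
Lcn2, minus strand, chr2:32387800-32387959: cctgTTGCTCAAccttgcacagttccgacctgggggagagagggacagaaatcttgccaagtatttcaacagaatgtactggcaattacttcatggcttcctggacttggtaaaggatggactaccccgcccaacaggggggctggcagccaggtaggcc
Orm2, plus strand, chr4:63362299-63362448: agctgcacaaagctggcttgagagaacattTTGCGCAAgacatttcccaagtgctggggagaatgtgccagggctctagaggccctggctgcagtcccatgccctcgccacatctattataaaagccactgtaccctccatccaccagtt
Apcs, minus strand, chr1:172895055-172895204: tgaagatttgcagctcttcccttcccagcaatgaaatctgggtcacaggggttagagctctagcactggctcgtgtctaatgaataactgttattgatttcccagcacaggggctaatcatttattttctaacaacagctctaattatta

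The C/EBP-type letters began 182 bases before the start of *Saa1*, 183 before that of *Saa2*, 216 before that of *Lcn2* and 120 before that of *Orm2*. They were also found in *Saa3*, *Saa4* and *Hpx*, and *Apcs* had no match in its 250 bases. Of all 32851 promoter sequences of the same length, 9.56% held these letters. The STAT-type letters TTCNNNGAA were found only in *Apcs* among the 8 genes, 244 bases before its start, and in 7.02% of all promoters. The NF-κB-type letters GGGNNNNNCC were found in *Saa1*, *Saa2*, *Saa4* and *Lcn2*, and in 45.8% of all promoters. In *Saa1* and *Saa2* the NF-κB-type letters lay 78 and 79 bases before the start, inside the stretches shown. TTGCNNAA and the other motifs did not overlap each other in *Saa1*, *Saa2* or *Lcn2*. The 250 bases of *Saa1* and *Saa2*, neighbouring genes on opposite strands, were identical at 238 of 251 aligned positions (94.8%). Matches of letters are a description of these windows and do not show that a factor was bound.

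*Saa1* and *Saa2* encode the serum amyloid A proteins that the liver secretes in large amounts in the acute phase. *Saa1* stood at normalized counts of 2040.4, 6200.1, 1626 and 1847 in control 1 to 4, and at 3135, 2949.7, 2489 and 2542 in AF1 peptide 1 to 4. A normalized count is the number of reads divided by the size factor of the library. Control 2 was far above every other mouse, and the 4 AF1 peptide mice lay between control 2 and the other 3 controls. The group means were 2928 ± 2188 in control and 2779 ± 314 with AF1 peptide (SD, n = 4). The log2 fold change of *Saa1* was 0.16 ± 0.35 (SE; limma, adjusted p = 0.936), with a 95% interval of 0.648- to 1.91-fold. Since the fold change is taken on the log2(normalized count + 1) scale, it was above 0 while the mean with AF1 peptide was 0.949 times the control mean, and it was -0.08 with edgeR and -0.07 with DESeq2 on the recovered reads.

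*Saa2* stood at 1567, 4243, 1434 and 1249 in control 1 to 4, and at 2134, 2131, 2257 and 2439 in AF1 peptide 1 to 4. The mice were arranged as for *Saa1*, with control 2 on top, then the 4 AF1 peptide mice, then the other controls. The spread was 66.8% of the mean among controls and 6.46% among AF1 peptide mice. *Saa2* had a log2 fold change of 0.27 ± 0.32 (limma, adjusted p = 0.865). The ratio of *Saa1* to *Saa2* ranged from 1.04 to 1.48 and overlapped between the groups (exact permutation test, two-sided, p = 0.457). Of the 50-base words of the main *Saa1* transcript, 14.8% also occur in other genes, mostly *Saa2*, so their separate levels are uncertain where reads were split between them.

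*Saa3* encodes the form that macrophages and fat cells make, and *Saa4* the form that hepatocytes make without a stimulus. *Saa3* was low, at 142, 264, 146 and 153 in control 1 to 4 and at 114, 169.9, 195 and 145 in AF1 peptide 1 to 4. Control 2 was again the highest, and AF1 peptide 1 was the lowest of all mice. For *Saa3* the difference on the log2 scale was -0.15 ± 0.23 (limma, adjusted p = 0.901). Its lowest library held 93 reads of *Saa3*, which gives a counting error of 10.4%. *Saa4* stood at 3866, 6315, 3018 and 2942 in control 1 to 4, and at 3868, 5494, 3295 and 3936 in AF1 peptide 1 to 4. Control 2 and AF1 peptide 2 were high and the other 6 mice were lower, so the groups overlapped. *Saa4* had a log2 fold change of 0.09 ± 0.24 (limma, adjusted p = 0.953).

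**Figure D1:**
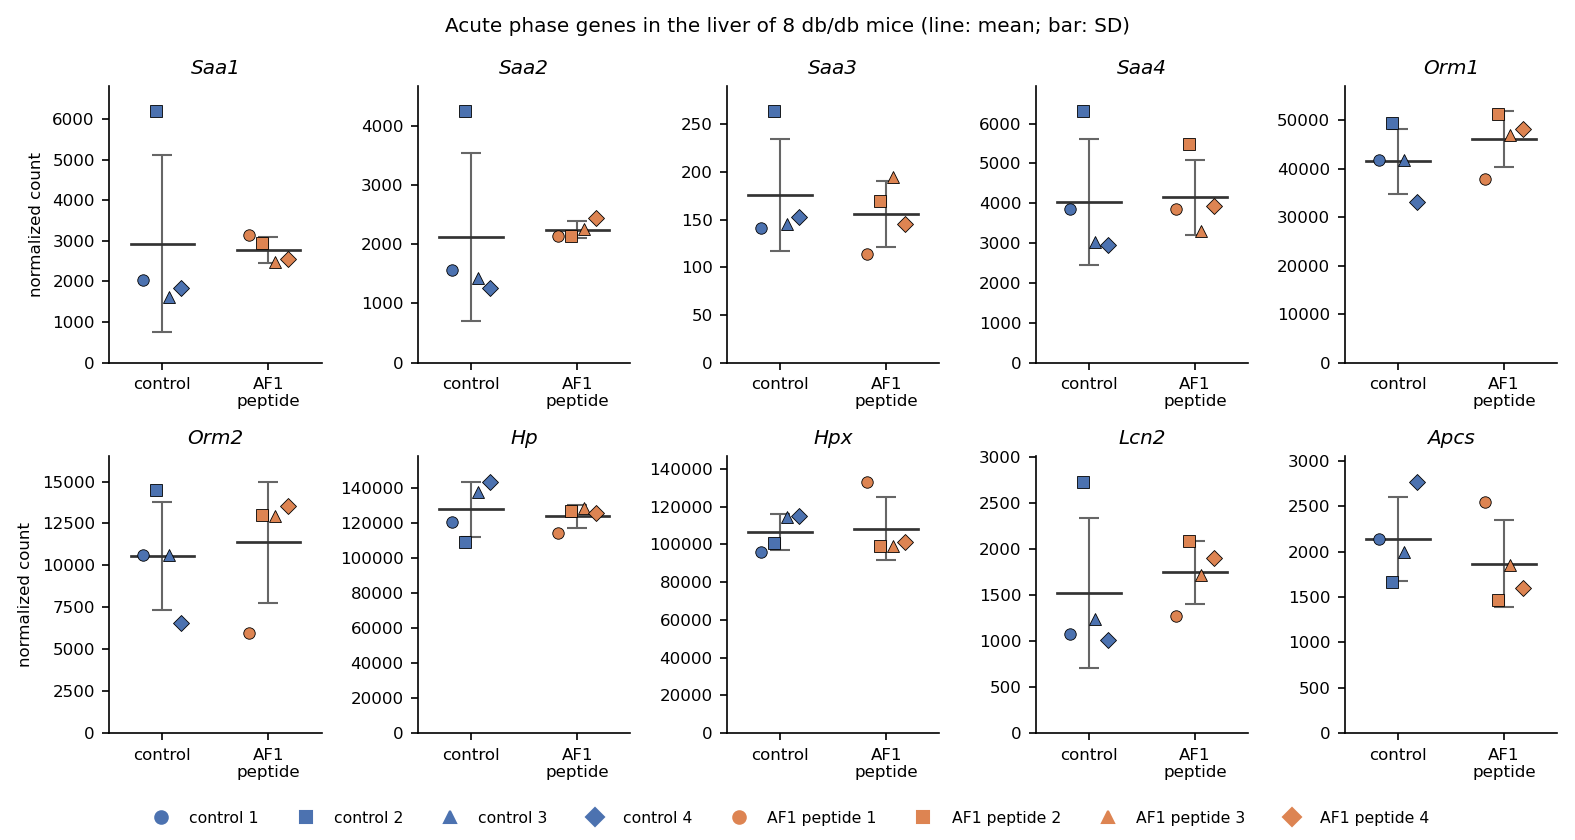
Normalized counts (vertical axes, from 0) of the 10 acute phase genes in each control and AF1 peptide mouse, with the group mean as a line and the SD as a bar (n = 4). Control 2 (blue square) is the highest mouse for 6 genes, and no gene separates the groups.

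*Orm1* and *Orm2* encode orosomucoids, also named α1-acid glycoproteins. *Orm1* stood at 41823, 49380.0, 41700.0 and 33055 in control 1 to 4, and at 37799.9, 51279.7, 46997 and 48219 in AF1 peptide 1 to 4. AF1 peptide 3 and 4 lay between control 2 and the other controls, AF1 peptide 2 was the highest of all, and AF1 peptide 1 was above control 4 alone. *Orm1* had a log2 fold change of 0.16 ± 0.18 (limma, adjusted p = 0.856), with an interval of 0.851- to 1.46-fold. *Orm2* stood at 10603, 14482, 10632 and 6551 in control 1 to 4, and at 5983, 13032, 12966 and 13558 in AF1 peptide 1 to 4. AF1 peptide 1 was the lowest and control 4 the next lowest, and the other 3 AF1 peptide mice were close together. For *Orm2* the log2 fold change was 0.09 ± 0.30 (limma, adjusted p = 0.965).

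*Orm3*, the other orosomucoid gene, varied more. *Orm3* ranged from 1223 to 5335 in control and from 873 to 5353 with AF1 peptide, with its lowest value in AF1 peptide 1 and a log2 fold change of -0.13 ± 0.55 (limma, adjusted p = 0.973). The ratio of *Orm1* to *Orm2* was 6.32 in AF1 peptide 1 and 5.05 in control 4, and 3.41 to 3.94 in the other 6 mice. The ratio of *Orm1* to *Orm3* was 43.3 and 27.0 in the same 2 mice, and between 9.26 and 14.7 elsewhere. The mice with the least orosomucoid RNA thus had relatively more *Orm1*. Both ratios overlapped between the groups (exact permutation tests, two-sided, p = 0.771 and 0.571). *Orm1* and *Orm2* share 20.4% of the 50-base words of *Orm1*, so reads may have been split between them.

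*Hp* and *Hpx* encode haptoglobin and hemopexin, and they were the most abundant of the 10 genes. *Hp* stood at 120789, 109286, 137856 and 143685 in control 1 to 4, and at 114131, 127112, 128479 and 125733 in AF1 peptide 1 to 4. All AF1 peptide mice lay within the range of the controls, and control 2, the highest mouse for *Saa1*, was the lowest for *Hp*. *Hp* had a log2 fold change of -0.04 ± 0.20 (limma, adjusted p = 0.977). *Hpx* stood at 96099, 100794, 114766 and 114905 in control 1 to 4, and at 133297, 99399.5, 99159 and 101248 in AF1 peptide 1 to 4. AF1 peptide 1 stood above all others, and the other 3 AF1 peptide mice lay within the controls. For *Hpx* the log2 fold change was 0.01 ± 0.20 (limma, adjusted p = 0.993), with an interval of 0.741- to 1.38-fold. The ratio of *Hp* to *Hpx* was 0.856 in AF1 peptide 1 and between 1.08 and 1.3 in the other 7 mice.

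*Lcn2* encodes lipocalin 2, which hepatocytes make in inflammation and neutrophils store in granules. *Lcn2* stood at 1077, 2729.8, 1243 and 1014 in control 1 to 4, and at 1276, 2080.3, 1716 and 1905 in AF1 peptide 1 to 4. Control 2 was the highest, and all 4 AF1 peptide mice were above the other 3 controls. With all mice, *Lcn2* had a log2 fold change of 0.31 ± 0.29 (limma, adjusted p = 0.834), the largest of the 10 genes, with an interval of 0.795- to 1.92-fold. *Apcs* encodes serum amyloid P, the main acute phase pentraxin of the mouse. *Apcs* stood at 2141, 1661, 1997 and 2773 in control 1 to 4, and at 2547, 1468, 1855 and 1604 in AF1 peptide 1 to 4. Control 4 and AF1 peptide 1 were the highest, the same 2 mice in which *Orm2* was lowest. *Apcs* had a log2 fold change of -0.21 ± 0.19 (limma, adjusted p = 0.834).

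For single genes, exact permutation tests between the groups gave two-sided p values of 0.37 to 0.83, where 4 mice against 4 cannot go below 0.029. The median log2 fold change of the 10 genes was 0.09, beside -0.01 for all genes tested, with 7 genes above 0 and 3 below. These are bulk livers, so fewer cells of a type and less RNA per cell cannot be told apart.

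Without control 2 the comparison of the serum amyloid A and lipocalin genes changed. That mouse held 3.37 times the mean of the other 3 controls for *Saa1*, 2.99 times for *Saa2*, 2.46 times for *Lcn2*, 1.93 times for *Saa4*, 1.80 times for *Saa3*, 1.56 times for *Orm2* and 1.27 times for *Orm1*. For *Hpx*, *Hp* and *Apcs* it held 0.928, 0.815 and 0.721 times that mean. When it was left out, 3 of the 10 genes, *Saa1*, *Saa2* and *Lcn2*, were called higher with AF1 peptide, beside 1.26% of all genes. The log2 fold change became 0.60 ± 0.13 for *Saa1*, 0.66 ± 0.11 for *Saa2* and 0.63 ± 0.17 for *Lcn2* (limma, adjusted p = 0.994 for each). These calls rest on the unadjusted p value and none of the 3 passed the correction over all genes. *Saa4* reached 0.33 ± 0.18 and *Orm2* 0.26 ± 0.30 without being called, and *Saa3* turned from -0.15 to 0.06. The mouse was left out as 1 of 8 such repeats, and no label sets it apart.

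**Figure D2:**
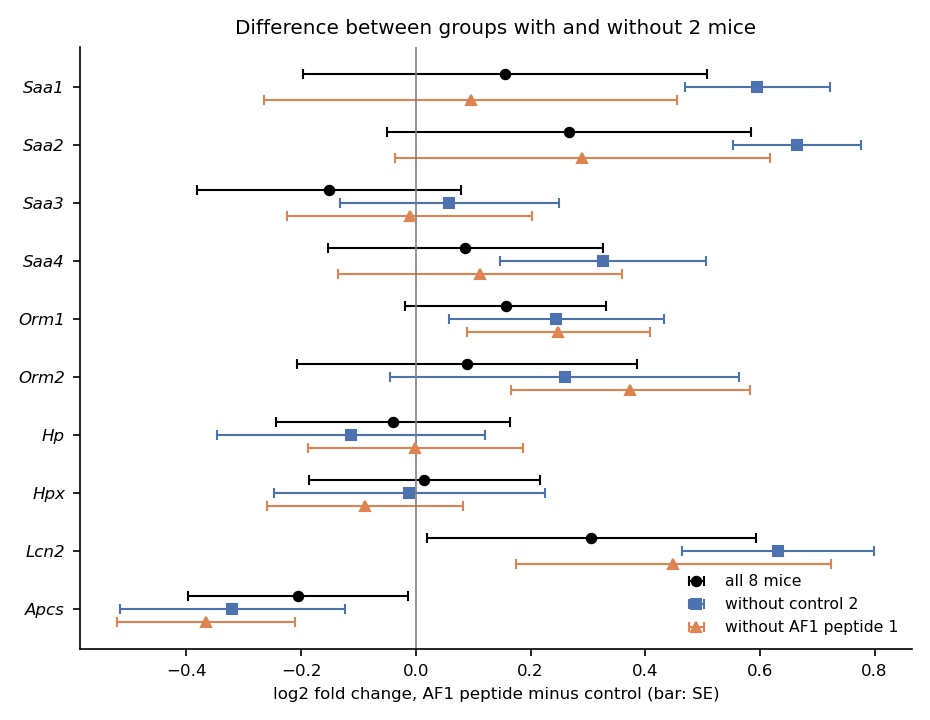
Log2 fold changes (horizontal axis, AF1 peptide minus control) of the 10 genes with all 8 mice, without control 2 and without AF1 peptide 1, with the SE as a bar. *Saa1*, *Saa2* and *Lcn2* move to 0.60, 0.66 and 0.63 without control 2, while *Hp* and *Hpx* stay near 0.

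Control 2 was the highest of the 4 controls in 7 of the 10 genes (70%) and in 26.6% of all genes tested. Its share of mitochondrial reads was 26.8%, within the 22.4 to 34.3% of the controls. The summed neutrophil markers were 253 in control 2, 182 to 245 in the other controls and 84.9 to 319 in AF1 peptide mice. Only 3 of the 12 neutrophil markers in the table reached a mean of 10, and control 2 was the highest control for 1 of these 3. Summed macrophage and Kupffer cell markers were 7136 in control 2, within the 6235 to 7782 of the controls, and hepatocyte markers were also within the range of the controls. Summed stellate and fibroblast markers were 7492 in control 2 and 4749 to 5855 in the other controls, and control 2 was the highest control for 5 of the 7. In AF1 peptide mice this sum ran from 3341 to 8622, and AF1 peptide 3 (8342) and AF1 peptide 4 (8622) were above control 2. Summed bile duct markers were 1799 in control 2 and 1193 to 1465 in the other controls, and control 2 was the highest control for 3 of the 5. With AF1 peptide they were 803 to 2291, so control 2 was not the highest mouse there either. The part of the neutrophil, stellate, fibroblast and bile duct markers in the levels of *Saa1*, *Saa2* and *Lcn2* was not tested.

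Other mice also weighed on single genes, among them control 4 and AF1 peptide 1. Control 4 was the highest mouse in 2 of the 10 genes and the lowest in 4. Without control 4, log2 fold changes were 0.08 for *Saa2*, 0.16 for *Lcn2*, -0.12 for *Orm2* and -0.07 for *Apcs*, and 0 of the 10 genes were called. AF1 peptide 1 was the highest or lowest of all 8 mice in 3 of the 10 genes (30%) and in 49.3% of all genes tested. Without it, *Orm2* had a log2 fold change of 0.37 ± 0.21 (limma, adjusted p = 0.559) and *Orm1* one of 0.25 ± 0.16. *Apcs* then had -0.37 ± 0.15 (limma, adjusted p = 0.486), which is less than a 1.3-fold change, so it was not called although its unadjusted p value was under 0.05. AF1 peptide 1 had the lowest share of mitochondrial reads (20.8%). Its summed macrophage and Kupffer cell markers were 2841, against 6782 to 7498 in the other AF1 peptide mice. Its summed hepatocyte markers (1998848) were below those of all other mice, and *Alb* made up 1224160 of that sum. The list did not fall as a whole, since *Hpd* was highest in AF1 peptide 1, at 109126 against 21689 to 37030 in the other mice. That mouse was the highest or lowest of all 8 in all 10 hepatocyte markers. The part of these values in the levels of *Orm2* and *Hpx* was not tested.

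Among the 10 genes the spread within groups was uneven, and for *Saa1* and *Saa2* it lay in the controls. The pooled SD of log2 values within groups was 0.64 for *Saa1*, larger than that of 91.8% of all genes tested, and 0.57 for *Saa2* (88.7%). It was 0.52 for both *Orm2* (85.9%) and *Lcn2* (85.4%). *Hp* with 0.14 (17.5%) and *Hpx* with 0.17 (29.6%) had the smallest pooled SD of the 10, and *Orm1* with 0.22 (42.9%) was near the middle of all genes. Within the AF1 peptide group the order differed, with a spread of 5.32% of the mean for *Hp*, 6.46% for *Saa2*, 11.3% for *Saa1* and 15.4% for *Hpx*. In the controls, control 2 included, it was 74.7% for *Saa1* and 9.05% for *Hpx*. From the lowest to the highest mouse, *Saa1* spanned 3.81-fold and *Hp* 1.31-fold. Counting error at the lowest library was 2.58% for *Saa1* and 0.379% for *Hp*, below the spread between mice.

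Levels of different genes were compared per kilobase of the main transcript (the APPRIS principal transcript of GENCODE M21). *Hp* had the highest mean, 93594 normalized counts per kilobase, followed by *Hpx* with 71687 and *Orm1* with 56492. Over all mice the ranges of *Hp* and *Hpx* overlapped, as did those of *Hpx* and *Orm1*. Such ranges do not show the order of these genes within each mouse, since every gene was measured in the same mice. *Orm2* came next with 14163, and no mouse reached the lowest *Orm1* level. *Saa1* (4686), *Saa2* (3347), *Apcs* (2066), *Saa4* (1954) and *Lcn2* (1782) followed, each overlapping its neighbour, and *Saa1* overlapped *Orm2* only through control 2, at 10181. *Saa3* was the lowest with 299, and its range of 205 to 476 lay below that of every other gene. Together the 10 genes took 1.1 to 1.3% of all reads outside mitochondrial genes in the controls and 1.2 to 1.3% with AF1 peptide.

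**Figure D3:**
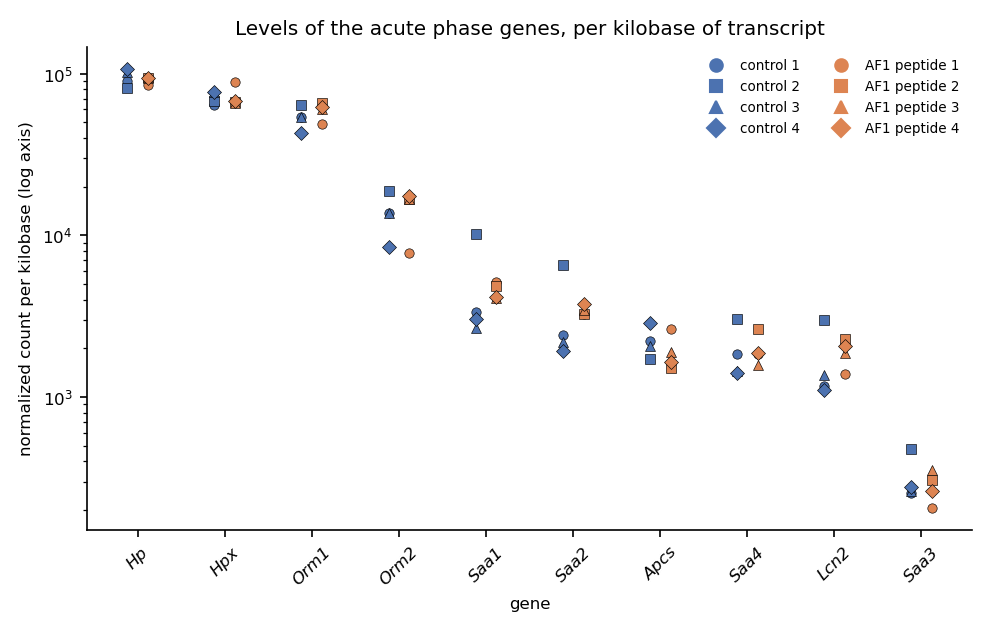
Normalized counts per kilobase of main transcript (vertical log axis) of the 10 genes in order of their mean, with 1 point per mouse. *Hp*, *Hpx* and *Orm1* lie above the rest, *Saa3* lies below the rest, and *Saa1* in control 2 reaches 10181.

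The 10 genes did not move as 1 block from mouse to mouse. Correlations of log2 levels were computed for all 45 pairs over the 8 mice, with p values from exact permutation of the mice, adjusted over the 45 pairs. Pearson's adjusted p value was under 0.05 for 13 pairs and Spearman's for 0 pairs, with 0.051 as the smallest adjusted value for Spearman's. *Saa1*, *Saa2* and *Lcn2* were high in the same mice, as were *Orm1* and *Orm2*, and *Apcs* was high where the orosomucoids were low. *Lcn2* was also high where *Orm1* was high and *Apcs* was low, so it was not particular to the serum amyloid A genes.

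*Saa1* and *Saa2* had r = 0.939 and rho = 0.786 (exact permutation, p = 0.00221 and 0.0279, adjusted p = 0.0199 and 0.0898). Without control 2 and control 3, the 2 mice farthest from the median of *Saa1*, r was 0.817, and shared reads can add to it. *Saa2* and *Lcn2*, which share no 50-base words, had r = 0.907 and rho = 0.833 (exact permutation, p = 0.00139 and 0.0154, adjusted p = 0.0195 and 0.0769). Without control 2 and control 4, the farthest from the median of *Saa2*, r was 0.764. *Saa4* and *Lcn2* had r = 0.806 and rho = 0.881 (exact permutation, p = 0.0143 and 0.00724, adjusted p = 0.0495 and 0.0543), but r was 0.351 without control 2 and AF1 peptide 2. *Saa2* and *Saa4* had r = 0.801 and rho = 0.762 (exact permutation, p = 0.0132 and 0.0368, adjusted p = 0.0495 and 0.11), and r was 0.401 without control 2 and control 4. These 2 values for *Saa4* thus rested on those mice. *Saa1* and *Saa4* had r = 0.865 and rho = 0.881 (exact permutation, p = 0.00278 and 0.00724, adjusted p = 0.0208 and 0.0543), and r was still 0.650 without control 2 and control 3. *Saa1* and *Saa3* had r = 0.629 and rho = 0.19 (exact permutation, p = 0.105 and 0.665, adjusted p = 0.183 and 0.712). That r became -0.202 without control 2 and control 3, so the value rested on them.

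*Orm1* and *Apcs* had the strongest relation of all pairs, and it was inverse. The pair had r = -0.975 and rho = -0.952 (exact permutation, p = 9.92e-05 and 0.00114, adjusted p = 0.00446 and 0.0513). Without control 4 and AF1 peptide 1, the 2 mice farthest from the median of *Orm1*, r was -0.945, and with group means removed it was -0.972. *Orm2* and *Apcs* had r = -0.922 and rho = -0.881 (exact permutation, p = 0.00174 and 0.00724, adjusted p = 0.0195 and 0.0543), and r was -0.801 without the same 2 mice. *Orm1* and *Orm2* had r = 0.919 and rho = 0.881 (exact permutation, p = 0.00164 and 0.00724, adjusted p = 0.0195 and 0.0543), and r was 0.909 without them. The relation thus did not rest on the mice at the ends of the range for these 3 pairs. *Orm1* and *Lcn2* had r = 0.859 and rho = 0.881 (exact permutation, p = 0.00665 and 0.00724, adjusted p = 0.0427 and 0.0543), and r was 0.909 without control 4 and AF1 peptide 1. *Lcn2* and *Apcs* had r = -0.838 and rho = -0.857 (exact permutation, p = 0.0113 and 0.0107, adjusted p = 0.0495 and 0.0689), and r was -0.848 without control 2 and control 4.

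The serum amyloid A genes did not share 1 relation to *Hp*. *Saa1* and *Hp* had r = -0.831 and rho = -0.81 (exact permutation, p = 0.00789 and 0.0218, adjusted p = 0.0444 and 0.0891), and r was -0.663 without control 2 and control 3. *Saa2* and *Hp* had r = -0.793 and rho = -0.69 (exact permutation, p = 0.0193 and 0.0694, adjusted p = 0.062 and 0.173), with r = -0.355 without control 2 and control 4. *Saa3* and *Hp* had r = -0.26 and rho = 0.143 (exact permutation, p = 0.543 and 0.752, adjusted p = 0.582 and 0.769), and r was -0.024 without control 2 and AF1 peptide 1. *Saa4* and *Hp* had r = -0.735 and rho = -0.786 (exact permutation, p = 0.0371 and 0.0279, adjusted p = 0.0981 and 0.0898), and r was -0.899 without control 2 and AF1 peptide 2. *Hp* and *Hpx*, the binders of haemoglobin and haem, had r = 0.069 and rho = 0.143 (exact permutation, p = 0.883 and 0.752, adjusted p = 0.883 and 0.769), and r was -0.327 without control 2 and control 4. *Orm2* and *Hpx* had r = -0.842 and rho = -0.429 (exact permutation, p = 0.0134 and 0.299, adjusted p = 0.0495 and 0.434). That r was -0.343 without control 4 and AF1 peptide 1, so the value rested on those mice.

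**Figure D4:**
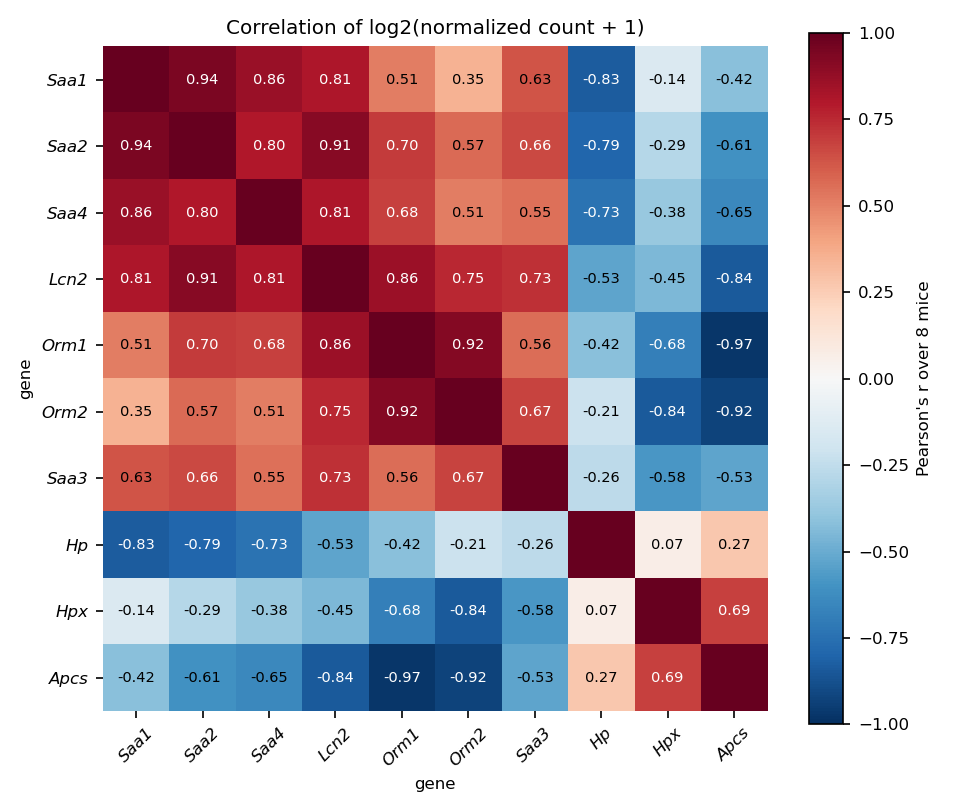
Pearson's r between the log2 levels of each pair of the 10 genes over 8 mice (colour from -1 to 1, value in each cell). *Saa1*, *Saa2*, *Saa4* and *Lcn2* have r of 0.80 to 0.94 with all mice, of which *Saa4* with *Lcn2* and with *Saa2* fell to 0.351 and 0.401 without the 2 farthest mice, and *Apcs* is negative with every gene except *Hp* and *Hpx*.

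**Figure D5:**
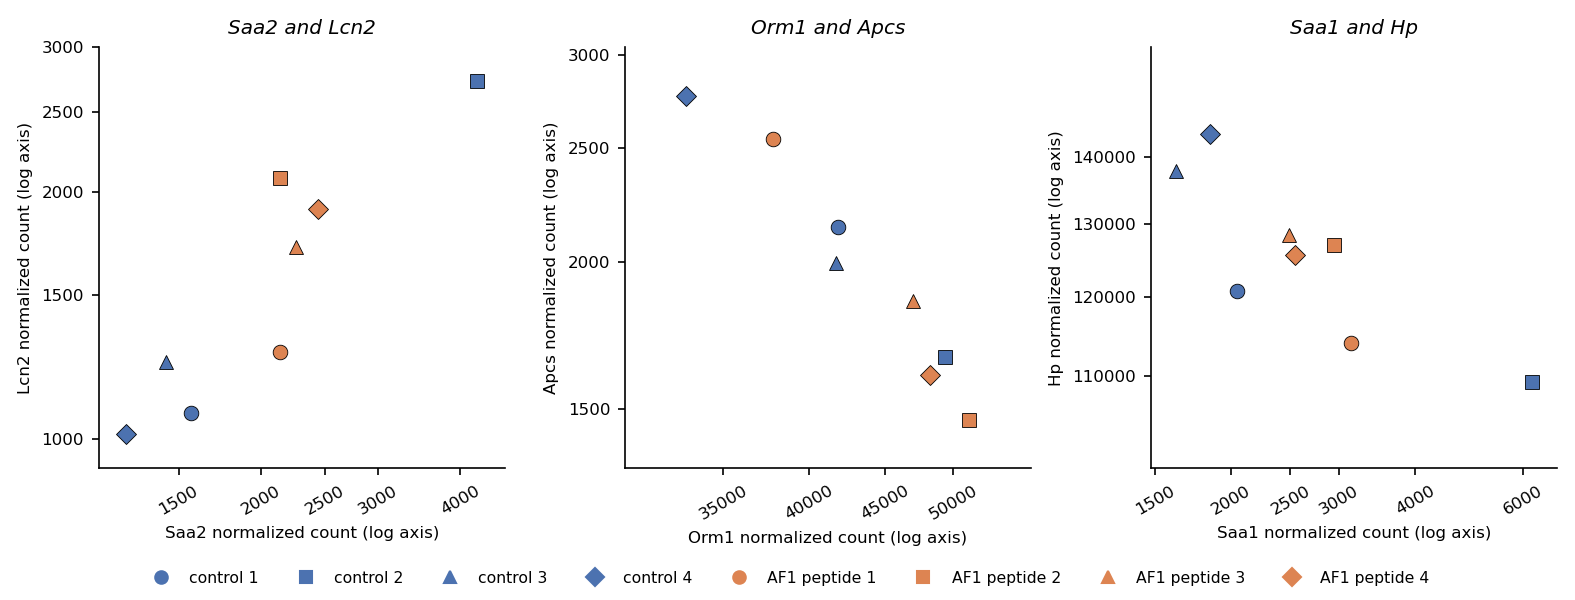
Normalized counts of 3 pairs of genes in each mouse (both axes log). *Lcn2* rises with *Saa2*, *Apcs* falls as *Orm1* rises, and *Hp* is lowest in control 2, where *Saa1* is highest.

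Other genes of the response were read in the same way. Of 26 other positive acute phase genes, 24 were tested, 0 were called, and the median log2 fold change was 0.00, with 13 above 0 and 11 below. AF1 peptide 1 was the highest or lowest of all mice in 20 of the 24 (83.3%, beside 49.3% of all genes), and the summed level of the list was 569142 in that mouse and 279292 to 340741 in the other 7. The smallest p values in that list belonged to the metallothioneins *Mt1* and *Mt2*, metal-binding proteins that also respond to glucocorticoids. *Mt1* stood at 10879.8 to 23807 in control and at 15468 to 70276 with AF1 peptide, the highest being AF1 peptide 1, with a log2 fold change of 0.79 ± 0.42 (limma, adjusted p = 0.763). *Mt2* had 0.59 ± 0.32 (limma, adjusted p = 0.765), and it was the 1 gene of the list called without control 2. Without AF1 peptide 1, 3 genes of the list were called lower, the fibrinogen genes *Fga* (-0.41 ± 0.16) and *Fgg* (-0.45 ± 0.17) and the metalloreductase *Steap4* (-0.52 ± 0.15; limma, adjusted p = 0.478, 0.474 and 0.452), beside 5.9% of all genes called in either direction in that fit. Of 11 negative acute phase genes, which fall in the response, 0 were called and the median was -0.08. *Apoa1*, the main protein of high-density lipoprotein, had -0.41 ± 0.36 and *Fetub* 0.29 ± 0.18 (limma, adjusted p = 0.826 and 0.774). Without AF1 peptide 1 these were -0.11 ± 0.27 and 0.15 ± 0.15.

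The signalling genes upstream of the acute phase genes showed no called change. Of 22 genes of cytokine signalling to hepatocytes, 20 were tested and 0 were called (median 0.00). *Il6* itself was not analysed here. *Il6st*, the shared signalling subunit of interleukin 6 receptors, ranged from 1760.2 to 1863 in control and from 1426 to 2056 with AF1 peptide. *Il6ra*, the interleukin 6 receptor, had a log2 fold change of -0.04 ± 0.30 and *Il6st* one of -0.06 ± 0.11 (limma, adjusted p = 0.983 and 0.926). *Socs3*, a feedback inhibitor that STAT3 induces, ranged from 212 to 298 in control and from 197 to 427 with AF1 peptide, and the highest mouse was AF1 peptide 1. Control 2 was the highest of the 4 controls for *Socs3*, at 298 against 212 to 273 in the others. *Tnfrsf1a*, a receptor of tumor necrosis factor, had the smallest p value of the list, with -0.17 ± 0.09, followed by the cytokine *Lif* with -1.11 ± 0.70 (limma, adjusted p = 0.763 and 0.777). *Lif* was near the floor, at 1 to 23 reads per library, and had -0.46 ± 0.51 without AF1 peptide 1, its lowest mouse.

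Of 15 transcription factors of acute phase genes, 0 were called and the median was 0.03. *Stat3* had 0.12 ± 0.17, *Cebpb* -0.18 ± 0.14 and *Cebpd* -0.06 ± 0.20 (limma, adjusted p = 0.886, 0.801 and 0.965). *Creb3l3*, a membrane-bound factor of hepatocytes known to act on *Apcs*, ranged from 6366 to 7756 in control and from 7489.9 to 8256 with AF1 peptide, with 0.15 ± 0.10 (limma, adjusted p = 0.782). Of 11 receptors and clearance genes for the encoded proteins, 10 were tested and 0 called (median -0.10). Without AF1 peptide 1, 1 of them was called higher, *Cd163*, the macrophage receptor for haptoglobin bound to haemoglobin, with 0.54 ± 0.19 (limma, adjusted p = 0.474). Among them *Tlr2*, a receptor that can respond to serum amyloid A, had -0.86 ± 0.41, and *Ager*, the receptor for advanced glycation end products, 0.39 ± 0.18 (limma, adjusted p = 0.763 for both). Without AF1 peptide 1, *Tlr2* had -0.40 ± 0.23 and *Ager* 0.32 ± 0.19.

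Markers of cell types were read beside these genes. Of the 11 macrophage and Kupffer cell markers 1 was called lower, *Adgre1*, which encodes an adhesion receptor used as a macrophage marker, with -0.66 ± 0.27 (limma, adjusted p = 0.763). The call was lost without AF1 peptide 1 (-0.45 ± 0.23) and without control 2 (-0.56 ± 0.30), and the median of the list moved from -0.28 to 0.05 without AF1 peptide 1. Of 7 stellate and fibroblast markers 1 was called lower, *Dcn*, which encodes the matrix protein decorin, with -0.42 ± 0.18 (limma, adjusted p = 0.763). *Dcn* stayed called without AF1 peptide 1 (-0.43 ± 0.18) but not without control 2 (-0.35 ± 0.19). It ran against its list, in which 5 of the 7 were above 0, with a median of 0.04, or 0.24 without AF1 peptide 1. No marker was called among 10 hepatocyte, 3 neutrophil, 5 red blood cell, 5 endothelial, 5 bile duct and 1 adipocyte markers tested. Hepatocyte genes such as *Alb* were among the most abundant of the table, at normalized counts of 1224159.7 to 1997674, which fits the labelled tissue.

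The genes whose levels over the 8 mice were most like those of the acute phase genes were named by Pearson's r among 12433 genes, as a description without a test. For *Saa1* they were *Hopx* (r = 0.963), *Epn1* (0.949) and *Gata6* (0.942). *Hopx* was highest in control 2, at 1561, and at 755 to 1184 in the other mice. For *Lcn2* they were *Amigo1* (0.961), *H6pd* (0.942) and *Gm20605* (0.937), and for *Hpx* *Slc26a11* (0.978), *Smyd4* (0.970) and *Ctcf* (0.959). For *Orm2* they were *Celf2* (0.969), *Loxl1* (0.967) and *Nat8f5* (0.962), and *Celf2* ordered the 8 mice as *Orm2* did (rho = 1).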

How the data were processed

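RNA from the livers of 8 male db/db mice (4 control, 4 AF1 peptide) was sequenced, and groups and replicate numbers came from the sample labels. The authors used Trim Galore 0.6.7, HISAT2, SAMtools 1.17 and GenomicAlignments to trim, align, sort and count, with build mm39 per the submitters' processing notes. They deposited normalized counts, a signal in which the reads of each library were divided by its size factor. Whole reads were recovered for 100% of 172256 values (tolerance 0.02 reads). The annotation, the normalization tool, whether strand was used and how reads matching more than 1 gene were counted are not given in the sources used here.

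Differences on the log2(normalized count + 1) scale, which understates the change of low genes, came from limma 3.58.1 (R 4.3.3; trended, moderated variances) over the 15989 genes whose mean normalized count reached 10. P values were adjusted by the Benjamini-Hochberg method over all these genes. Called means an unadjusted p value under 0.05 with more than a 1.3-fold change. For single values, exact permutation tests (two-sided) were used. Depth was 23031880 to 45117528 reads per mouse, and counting errors cover counting only.

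The 10 genes, the other lists and the tests were chosen with earlier results of these data known. Genes of the other lists were named from among the called genes, the 2 with the smallest p values, the most abundant markers and chosen signalling genes (*Il6ra*, *Il6st*, *Stat3*, *Socs3*, *Cebpb*, *Cebpd* and *Orm3*). Likeness was ranked over genes with a mean of at least 50. Alternatives were pseudocounts of 0.5 and 5, no filter, TMM factors, equal totals, each gene's own variance, a replicate block, recovered reads in edgeR 4.0.16 and in DESeq2 1.42.0, no fold threshold and each mouse left out in turn. Equal totals outside the 13 mitochondrial genes were added after seeing the data. Transcripts came from GENCODE M21 and promoters from RefSeq (GRCm38.p6), and no coordinates were converted to mm39.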

Additional observations from a re-analysis of the deposited data

Results flagged for a closer look

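In each group of 4 mice, a value was marked where the gap between the highest or lowest mouse and its neighbour took a larger part of the range of the group than Dixon's 95% critical value for 4 samples. Of 92 groups, 16 were marked, where chance alone marks about 1 in 20 if groups are independent and values normally distributed. Of the 20 groups of the acute phase genes, 6 were marked. All genes were measured in the same mice, so the groups were not independent, and some genes were named for their small p values. The share of marked groups among all genes tested was not computed, so these counts do not show an excess over chance.

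Control 2 was the high mouse in 4 of these 6, for *Saa1* (0.909 of the range), *Saa3* (0.906), *Saa2* (0.894) and *Lcn2* (0.867). AF1 peptide 1 was the mouse apart in the other two, as the highest for *Hpx* (0.939) and the lowest for *Orm2* (0.922).

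Among the other named genes, AF1 peptide 1 was the highest of its group for *Cebpb* (0.968), *Tnfrsf1a* (0.873) and *Mt1* (0.870), and the lowest for *Clec4f*, a Kupffer cell marker (0.913), and *Hba-a1* (0.867). Control 2 was the highest control for *Tnfrsf1a* (0.948). Control 4 was the highest control for *Hba-a1* (0.908) and *Hbb-bt* (0.831), both haemoglobin genes. Control 1 was the highest control for *Hpd* (0.842) and the lowest for *Lyve1* (0.988).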

How the results depend on the processing

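Over 18 alternatives, 161 of 180 values of the 10 genes kept their direction and their side of the threshold, 16 turned direction while not called, and 3 passed the threshold, *Saa1*, *Saa2* and *Lcn2* without control 2. Scaling to equal totals moved the median of all genes from -0.01 to -0.10 and turned *Saa4* (-0.0046), *Orm2* (-0.0018) and *Hpx* (-0.077). With equal totals outside the mitochondrial genes the median was -0.01, and *Saa4* (0.084), *Orm2* (0.087) and *Hpx* (0.012) kept their direction. edgeR (-0.075) and DESeq2 (-0.074) turned *Saa1*. With each mouse left out in turn, log2 fold changes ran from -0.048 to 0.60 for *Saa1*, from 0.077 to 0.66 for *Saa2*, from -0.27 to 0.058 for *Saa3*, from -0.057 to 0.33 for *Saa4*, from -0.12 to 0.37 for *Orm2*, from -0.11 to 0.019 for *Hp*, from -0.089 to 0.053 for *Hpx*, from 0.052 to 0.25 for *Orm1*, from -0.37 to -0.074 for *Apcs* and from 0.16 to 0.63 for *Lcn2*. The values of *Orm1* and *Apcs* nearest 0 were those without control 4. The genes called higher numbered 0 to 3, the 3 being without control 2, and the median of the 10 genes ran from 0.016 to 0.25. Fits without 1 control rest on 3 controls. The cause of these shifts was not tested.

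Replicate numbers are shared by the groups, and the deviations of same-numbered mice correlated at 0.235, 0.0238, 0.216 and -0.064. Those of replicates 1 and 3 were the largest positive values of all pairs, while control 2 correlated best with AF1 peptide 4 (0.137). The largest in size was negative and between different numbers, control 1 with AF1 peptide 3 (-0.272). These mixed values do not settle whether the numbers pair the mice. A replicate block gave an unadjusted p value under 0.05 in limma for 7.78% of all genes, beside 6.19% without it. With a replicate block, *Saa1* kept its log2 fold change of 0.16 (limma, adjusted p = 0.886), and 0 of the 10 genes were called. Reads shared between *Saa1* and *Saa2* and between *Orm1* and *Orm2* limit what can be said of each alone.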
